A study of Caenorhabditis elegans with 4 samples.

Results

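Whole-worm transcript levels of the nematode Caenorhabditis elegans exposed to DEHP, di(2-ethylhexyl) phthalate, were compared with those of untreated worms over all genes read by the array. DEHP is a diester of phthalic acid used to soften plastics. The comparison rests on 2 of the 4 one-colour Affymetrix arrays of the series, 1 for DEHP-exposed worms and 1 for untreated worms, and the other 2 arrays, of worms exposed to bisphenol A (BPA) or to NP, read here as nonylphenol, are given only beside these values. After control probe sets were set aside, 17118 genes were read by a probe set assigned to 1 gene, and 8915 of them were detected. A gene was detected if the brighter of the 2 arrays reached the median of all probe sets, an intensity of 128.8.

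The worms were wild-type hermaphrodites, young adults of 3 days, grown on agar plates with E. coli OP50 as food. The DEHP group spent 24 h at 20 °C in a salt solution (K-medium) that held no food, with DEHP at 1/100 of the concentration that kills the median worm in 24 h. The BPA and NP groups had the same time, temperature and medium, each at 1/100 of its own 24 h lethal concentration. The untreated group carried no chemical, and the labels leave unstated its medium, its food and its time, so that exposure, fasting and handling cannot be told apart in any value below. A text field on labelling names fibroblast cultures as the source of RNA, while every other field names worms. Yolk is made by adult hermaphrodites. All 6 yolk-related genes were detected, and vit-6† had the highest mean intensity of the DEHP and untreated arrays, at 29283 with DEHP against 23261 untreated. Of 17 genes known from the male tail and spicules, 3 were detected.

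A C. elegans hermaphrodite first makes sperm and then switches to oocytes, and the young adult holds both, with embryos following. Its intestine is gut, liver and fat store in one: it takes up bacteria, secretes lysozymes and lectins, makes yolk and carries most of the enzymes that modify foreign chemicals. Food shortage, infection and insulin-like signalling through the FOXO factor DAF-16 are known to move many of the same intestinal genes. Since RNA came from whole worms, fewer cells of a type and less RNA per cell cannot be told apart.

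Each group had 1 array, so there is no test, no error and no replicate check, and precision is limited by the number of arrays. The deposited intensities had been scaled to the same trimmed mean of 500.1 on each array, while the median intensity was 128.1 for DEHP, 140.3 for BPA, 109.4 for NP and 141.7 for untreated worms. Once array medians were equalised, the middle detected gene read 0.16 log2 above its untreated value with DEHP. Every change below is a difference of log2 intensities, DEHP minus untreated, relative to that middle (median) gene, and intensities are printed as deposited. Genes are called higher or lower here if they passed 2-fold, or 1 on the log2 scale. Values under 28.3 were set to that floor, and such genes have a least fold instead of a change. A dagger (†) marks a gene read by a probe set of the shared type, whose probes can match other transcripts, so the member is uncertain. The ratio of the probe sets at the 3′ and 5′ ends was 0.934 with DEHP and 0.951 untreated for the Gapdh control, and 1.82 and 1.63 for the catalase control. It was 8.01 with DEHP and 6.66 untreated for the ubiquitin control, and 0.097 and 0.238 for the gly14 control. The controls thus did not all match between the 2 arrays.

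DEHP-exposed worms had higher signal for 19 of 23 major sperm proteins, 3 of 6 fatty acid elongases and 4 of 8 lysozymes, while another lysozyme was lower. Lower signal was seen for 9 of 22 FMRFamide-like neuropeptide genes, 4 of 21 synaptic vesicle release genes, 4 of 12 thick and 4 of 20 thin filament genes of muscle, 4 of 8 lipases and 4 of 10 small heat shock proteins. The other detected members of these lower lists were within 2-fold. Some of the lower genes counted as detected only through the untreated array, among them vesicle release, lipase and small heat shock genes. In all, 251 genes were higher and 510 lower, which is 2.82% and 5.72% of the detected genes. The counts of each list are to be read beside these shares. Genes of the ribosome, the proteasome, the respiratory chain, meiosis and the cell cycle stayed within 2-fold without exception among the detected members. At least 4-fold changes were seen for 42 higher and 71 lower genes, and 73.4% of the detected genes lay within 0.5 log2 of the median gene. Uncentred changes gave 391 higher and 365 lower genes, and 679 higher and 657 lower were counted with no filter on dim genes.

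Both counts were largest among dim genes. In the dimmest of 5 equal groups by mean intensity, 5.27% of genes were higher and 14.2% lower, and in the brightest 1.46% and 1.68%. A change of a gene whose dimmer value lies under the detection level of 128.8 is therefore uncertain in size, and this touches many of the lower genes named below. Such a gene counted as detected only through its brighter array, so counts of such genes are partly set by the filter. Shares also differed by chromosome. On chromosome V 4.67% of 1564 detected genes were higher and 8.31% lower, on chromosome IV 4.2% and 6.58%, and on chromosome X 3.25% and 6.5%. On chromosome I only 0.978% of 1533 genes were higher and 3.33% lower, and chromosome III was alike, with 1.27% and 3.75%.

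For 2104 genes a second detected probe set gave a reading from the same 2 arrays. The readings of 1 gene differed by a median of 0.23 log2, and by 0.65 at the 90th percentile. Of 92 genes past 2-fold with a further detected probe set, 88 had the same sign on every set, and 54 passed 2-fold on all of them. With unshared probe sets only, 24 of 27 such genes had the same sign on every set, and 13 passed 2-fold on all. This compares measurements within the same hybridisations, not separate worms.

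**Figure D1:**
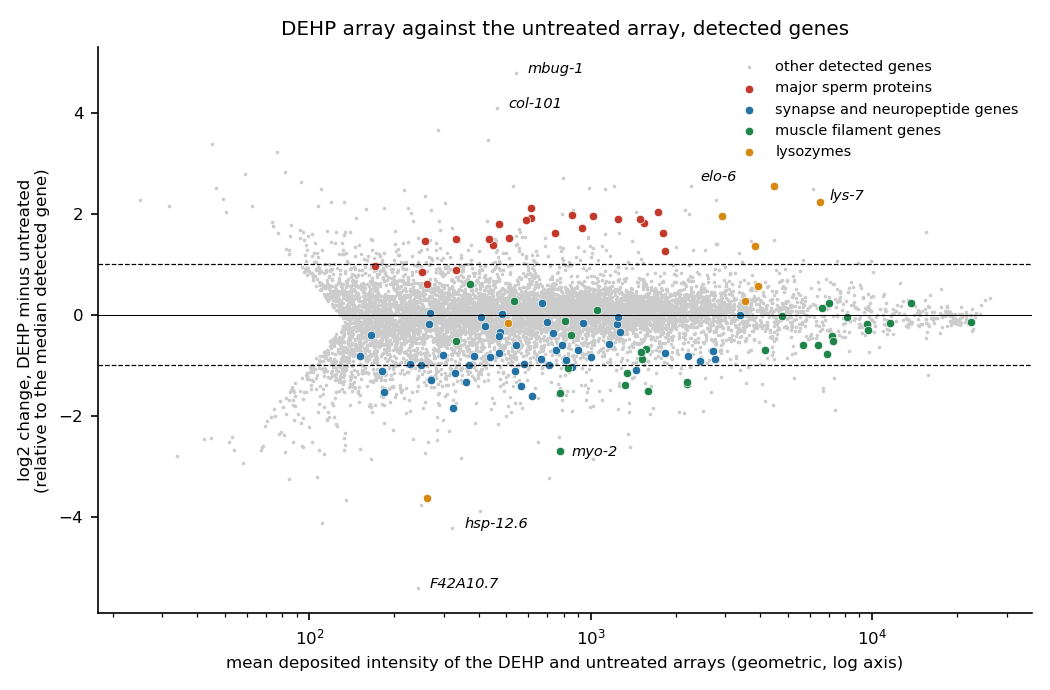
Log2 change, DEHP minus untreated and relative to the median detected gene, against the mean deposited intensity (log axis) of the 8915 detected genes, with 4 groups of genes coloured and dashed lines at 2-fold. The 23 major sperm proteins lie above 0 at every brightness, while synapse and neuropeptide genes lie mostly below it and muscle filament genes spread downward from it.

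The major sperm proteins, which form the crawling machinery of nematode sperm and also signal to oocytes, were higher as a family. All 23 members on the array were detected, all lay above the median gene, and 19 were higher and none lower, where 2.82% of all detected genes were higher, with a median of 1.61 and a range from 0.60 to 2.11. No member was read by an unshared probe set, so the 23 values are overlapping readings of one family of near-identical transcripts. The intensity of msp-76† was 1279 with DEHP, 212 with BPA, 185 with NP and 296 untreated. For msp-53† it was 3516 with DEHP, 799.8 with BPA, 615 with NP and 856 untreated. For msp-31† it was 1700.3 with DEHP, 359 with BPA, 312 with NP and 429.9 untreated. The DEHP array was the highest of the 4 for each of these, and the BPA and NP arrays lay below the untreated one. The family's median against the same untreated array was -0.26 for BPA and -0.68 for NP.

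Other sperm genes were mixed. Of 15 detected, 5 were higher and none lower, and all 5 were among the 9 read by shared probe sets. The MSP-domain gene msd-2† had 552 with DEHP against 152 untreated (1.85). Its relative msd-4† had 310.4 with DEHP against 137 untreated (1.18). The other 3 were nematode-specific peptides of family D, nspd-1†, nspd-2† and nspd-4†, whose changes ran from 1.59 to 1.67. The untreated intensities of the 3 nspd genes lay between 51.7 and 58.8, under the detection level, so they counted as detected only through the DEHP array. The 6 sperm genes with unshared probe sets had a median of -0.03. Among them cpb-1, a regulator of spermatogenesis, had 1396 with DEHP against 865 untreated (0.68). The gene of the sperm transcription factor spe-44 had 356 with DEHP against 376 untreated (-0.08). Sperm transcripts thus gave no single value across the list.

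**Figure D2:**
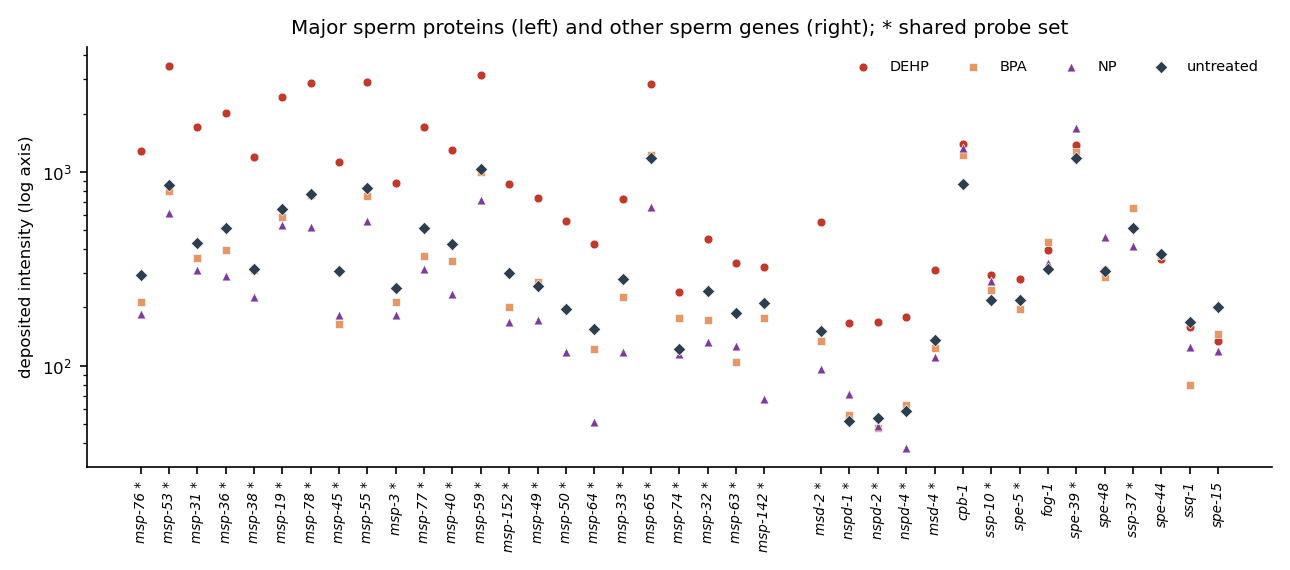
Deposited intensity (log axis) of the 23 major sperm proteins and the 15 other detected sperm genes on the 4 arrays, each point being 1 array. The DEHP points stand at least 2-fold above the other 3 arrays for 19 major sperm proteins and for msd-2, msd-4, nspd-1, nspd-2 and nspd-4, and within 2-fold of another array for the remaining genes.

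Oocyte and embryo genes moved little. Of 25 regulators of oocytes and maternal RNA, 1 was higher, mex-1† at 2184 with DEHP against 1067 untreated (1.03), and the median was 0.27. The 17 eggshell and fertilisation genes had a median of 0.33 with none past 2-fold, and cbd-1†, an eggshell protein gene, stood at 11455 with DEHP against 8859 untreated (0.36). None of 32 meiotic genes, 69 cell cycle and replication genes, 25 P granule and Argonaute genes or 12 zygotic regulators passed 2-fold, and their medians lay between 0.03 and 0.17. Among 31 histone genes the one past 2-fold was hil-1, an H1-like linker histone, at 509 with DEHP, 1171 with BPA, 1265 with NP and 1454 untreated (-1.52). The yolk protein genes vit-2, vit-4†, vit-5† and vit-6† had changes from -0.13 to 0.33, whereas vit-1 read 2197 with DEHP, 717 with BPA, 1029 with NP and 717 untreated (1.61). Only vit-1 of these yolk genes was higher.

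Most nervous system lists lay below the median gene. FMRFamide-like neuropeptides, short amidated peptides released by neurons, had the lowest median of them. All 22 detected flp genes were below the median gene, 9 were lower and none higher, where 5.72% of all detected genes were lower, and the median was -0.94, or -0.998 over the 14 with unshared probe sets. The intensity of flp-10 was 354 with DEHP, 427 with BPA, 501 with NP and 1073 untreated (-1.605). For flp-8 it was 347 with DEHP, 632 with BPA, 453 with NP and 918 untreated (-1.41). Both stood lowest on the DEHP array. The member nearest to the median gene was flp-24, at 662 with DEHP against 734 untreated (-0.15).

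Enzymes that cut and amidate neuropeptides lay below the median gene by a similar amount, although most stayed within 2-fold. Of 8 detected, 7 lay below the median gene, and the median was -0.77. The amidating enzyme gene pghm-1 had 991 with DEHP, 1648 with BPA, 957 with NP and 2106 untreated (-1.09). The proprotein convertase gene egl-3 had 2122 with DEHP against 3481 untreated (-0.72). The carboxypeptidase gene egl-21† had 1782 with DEHP against 3342 untreated (-0.91). These are bright probe sets, far above the detection level on both arrays. Of the 42 detected nlp genes, a wider class of neuropeptide-like genes, 15 were lower and none higher, with a median of -0.73. Over all detected genes 5.72% were lower. The 15 include nlp-26 and nlp-29†, counted again below as epidermal antimicrobial peptides, so the class is not neuronal alone. Shared probe sets read 17 of the 42. Among them nlp-1 read 156 with DEHP against 534 untreated (-1.78). The gene nlp-18 had 489 with DEHP against 1389.5 untreated (-1.51). The gene nlp-40, expressed in the intestine, read 2422 with DEHP against 2329 untreated (0.05). All 10 detected genes of the neuropeptide receptor class npr were below the median gene, with changes from -1.07 to -0.51.

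Genes of synaptic release and transmitter use followed the same direction with fewer 2-fold members. Of 21 vesicle release genes, 19 lay below the median gene, 4 were lower and none higher, with a median of -0.70. The synaptotagmin gene snt-1, a calcium sensor of vesicle fusion, had 172 with DEHP, 419 with BPA, 217 with NP and 614 untreated (-1.85). The complexin gene cpx-1 had 109 with DEHP, 176 with BPA, 74.7 with NP and 314 untreated (-1.54). Its DEHP value was under the detection level, so cpx-1 counted as detected only through the untreated array. The gene rab-3†, a vesicle GTPase gene, had 598 with DEHP against 1226 untreated (-1.04). Over the 14 genes with unshared probe sets the median was -0.29, so part of the list moved less. The fourth lower gene, unc-10†, changed by -1.01 on a shared probe set but by 0.40 and 0.33 on its unshared ones, which were below detection. Acetylcholine genes held 4 lower of 12, among them the transporter genes cho-1† (-1.25) and unc-17† (-1.13) and the muscarinic receptor gene gar-2 (-1.22). Both transporter genes counted as detected only through the untreated array. Of 18 genes for GABA, glutamate and monoamines, 6 were lower and none higher. Among the 6, eat-4, glr-4 and dat-1 counted as detected only through the untreated array. For comparison, 5.72% of all detected genes were lower, and 14.2% in the dimmest of the 5 groups by intensity. The glutamate transporter gene eat-4 had 85.6 with DEHP against 324 untreated. The dopamine transporter gene dat-1 had 80.9 with DEHP against 184 untreated. The glutamate receptor gene glr-5 had 151 with DEHP against 331 untreated. The enzyme genes tdc-1 (0.04) and tbh-1† (0.66), which make tyramine and octopamine and are also expressed in the gonad, were not lower.

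Sensory lists were thin. Of 6 detected transduction genes 2 were lower, both known from touch receptor neurons. The alpha-tubulin gene mec-12† had 268 with DEHP, 641 with BPA, 346 with NP and 1012 untreated (-1.93). The tubulin acetyltransferase gene mec-17† had 252 with DEHP against 789 untreated (-1.65). In contrast, 7 of 8 detected cilia genes lay above the median gene and none passed 2-fold, with a median of 0.24. Of 15 detected potassium channel genes 4 were lower, all of the two-pore-domain class: twk-26 (-1.49), twk-12 (-1.45), twk-18 (-1.06) and twk-29. The DEHP value of twk-29, 27.6, lay under the floor, and it was at least 6.09-fold lower. Of the 4, twk-26, twk-12 and twk-29 counted as detected only through the untreated array, so this count is partly set by the filter. Only 9 of the 1210 chemoreceptor genes on the array were detected, and srh-237 was higher (1.16). Most chemoreceptors thus lay below what these arrays read.

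Muscle genes lay below the median gene unevenly. All 5 detected myosin genes of the myo class were lower, with changes from -2.70 to -1.02. They include genes known from the pharynx, the feeding organ, and from the body wall. The pharyngeal myosin gene myo-2† had 306 with DEHP, 1133 with BPA, 305 with NP and 1972 untreated (-2.696). The gene myo-1† had 1381 with DEHP, 3197 with BPA, 1266 with NP and 3470.5 untreated (-1.34). The body wall myosin gene myo-3† had 575 with DEHP, 926 with BPA, 751 with NP and 1194 untreated (-1.06). Of the 4 thin filament genes past 2-fold, 3 were troponin genes. The troponin I gene tni-4 had 948 with DEHP against 2702 untreated (-1.52). The troponin C gene tnc-2 had 815 with DEHP against 2140.0 untreated (-1.399). The troponin T gene tnt-4 had 904 with DEHP against 1993 untreated (-1.15). The calponin-like gene clik-2 was lower by a similar amount, at 1366 with DEHP against 3533 untreated (-1.38). Body wall members differed among themselves, from genes within 2-fold to genes past it. The myosin gene unc-54† had 6073 with DEHP against 8636 untreated (-0.52). The paramyosin gene unc-15† had 8719 with DEHP against 10754 untreated (-0.31). The light chain gene mlc-2† had 21251 with DEHP against 23515 untreated (-0.15). These 3 bright genes stayed within 2-fold. The giant protein gene unc-22, twitchin, was lower, at 455 with DEHP, 795 with BPA, 225 with NP and 1329 untreated (-1.55). The medians were -0.67 over 12 thick filament genes with 4 lower, -0.30 over 20 thin filament genes with 4 lower, and -0.12 over 19 attachment genes with none past 2-fold.

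**Figure D3:**
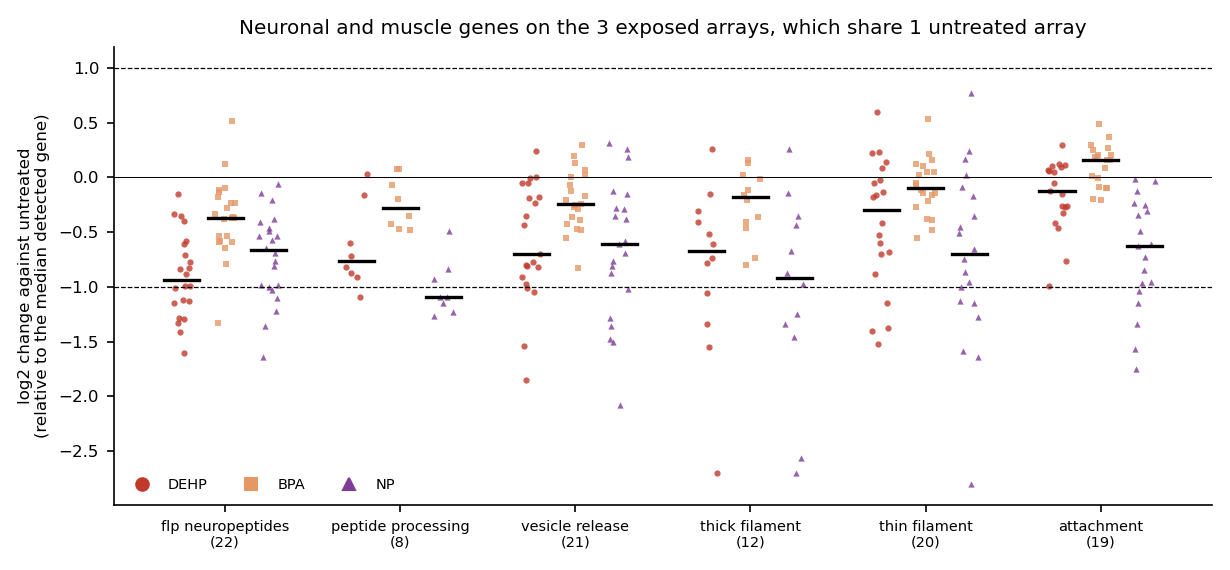
Log2 change against the untreated array, relative to each comparison's median detected gene, for neuronal and muscle genes detected with DEHP (numbers in brackets); points are genes, black bars are medians, and the 3 exposed arrays share the 1 untreated array. DEHP medians lie between -0.94 for flp neuropeptides and -0.12 for muscle attachment, BPA medians lie above the DEHP median in each list, and NP medians are below 0 in all 6 lists.

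Because the 3 exposed arrays share 1 untreated array, a value that is high there lowers all 3 changes, and the values are only set side by side. For flp neuropeptides the medians were -0.94 for DEHP, -0.37 for BPA and -0.67 for NP. For thick filament genes they were -0.67, -0.18 and -0.92 in the same order. The 3′ to 5′ ratio of the catalase control was 3.38 on the NP array, against 1.63 on the untreated array, and its part in the NP values was not tested.

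Epidermal genes went both ways. Of 76 detected cuticle collagens, which build the worm's outer coat, 12 were higher and 11 lower, with a median of 0.23. The intensity of col-101† was 1918 with DEHP, 556 with BPA, 234 with NP and 112.4 untreated (4.09). The value of col-143 was 2929 with DEHP, 958 with BPA, 1135 with NP and 712 untreated (2.03). The very bright col-124† read 27239 with DEHP, 10726 with BPA, 6144 with NP and 8781 untreated (1.63). All 3 were highest on the DEHP array. In the other direction col-39 read 232 with DEHP, 969 with BPA, 362 with NP and 2165 untreated (-3.23). The gene col-147† had 3834 with DEHP, 10789 with BPA, 4003 with NP and 14093 untreated (-1.89). The gene col-125† had 10460.1 with DEHP, 22973 with BPA, 11503 with NP and 23926 untreated (-1.201). Untreated worms gave the highest value for these 3, and for col-147† and col-125† NP lay close to DEHP. Since 45 of the 76 were read by shared probe sets, values within this family of close paralogs are uncertain as to the member.

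Hedgehog-related genes, secreted proteins of the worm's apical matrix, mostly lay above the median gene. Of 21 detected, 14 lay above the median gene, 5 were higher and 2 lower, with a median of 0.71. The warthog gene wrt-1 had 1545 with DEHP, 879 with BPA, 1606 with NP and 659.7 untreated (1.22). Its relative wrt-2† had 1471 with DEHP, 1114 with BPA, 1553 with NP and 610.5 untreated (1.26). The ground-like gene grl-7† had 1006 with DEHP, 545 with BPA, 1076 with NP and 308 untreated (1.703). On NP these 3 genes were about as bright as on DEHP. In the other direction the groundhog gene grd-10 had 67.9 with DEHP, 428 with BPA, 120.2 with NP and 915 untreated (-3.76), among the lowest genes of the comparison. Of 20 cuticlin and matrix genes 14 lay above the median gene, with cut-6 higher (1.17), and the lipocalin-related gene lpr-3 read 2202 with DEHP against 1026 untreated (1.09). The 8 detected bus genes, named for their effect on how bacteria stick to the surface, had a median of 0.85, led by bus-12 (1.16) and bus-28 (1.11).

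Epidermal antimicrobial peptides were lower in part. Of 14 detected, 5 were lower and 1 higher. The fungus-induced protein related gene fipr-2 had 555 with DEHP, 1669 with BPA, 803 with NP and 3419 untreated (-2.63). The DEHP array was the lowest of the 4 for fipr-2. The neuropeptide-like gene nlp-26 had 109.9 with DEHP against 631 untreated (-2.53). The gene nlp-29†, known to be raised by fungal infection of the epidermis, had 473 with DEHP against 1228 untreated (-1.38). The caenacin gene cnc-3† was the higher one, at 372 with DEHP against 181 untreated (1.03).

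**Figure D4:**
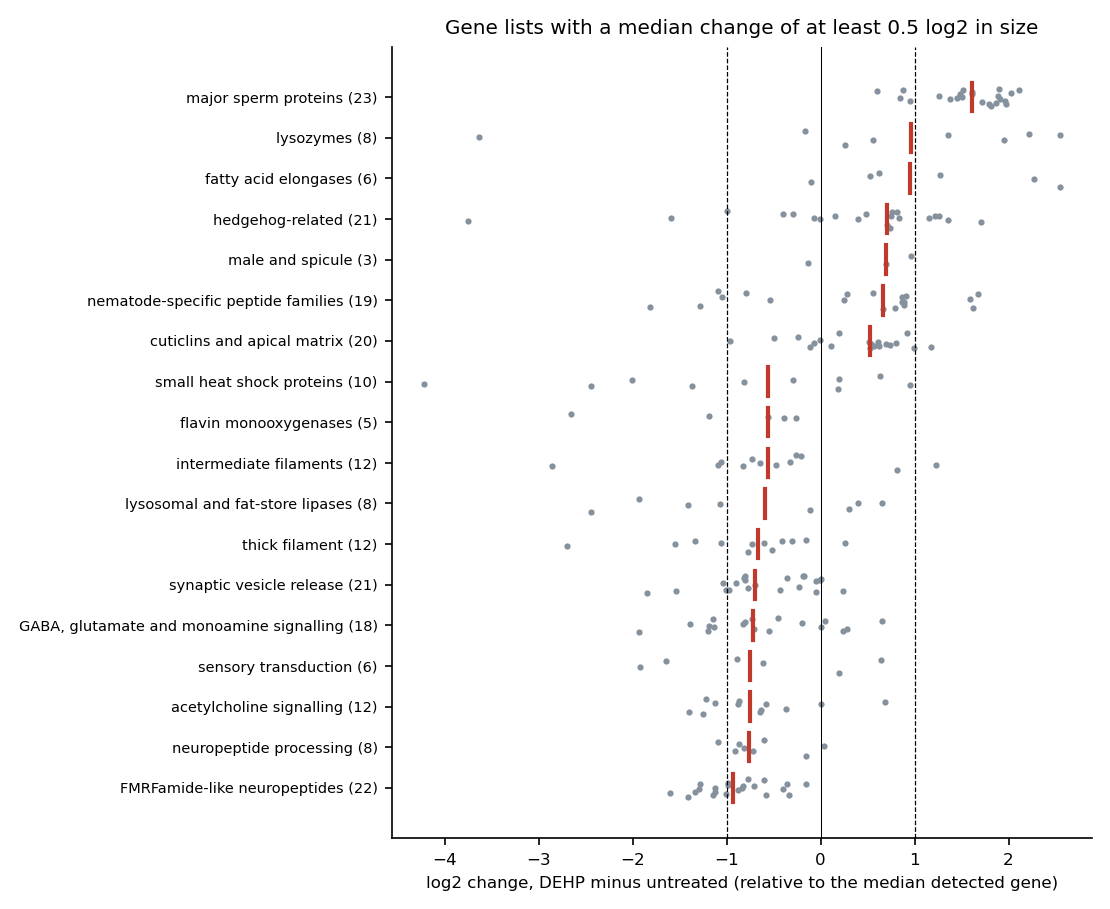
Log2 change, DEHP minus untreated and with the median detected gene at 0, of the detected members of each gene list whose median was at least 0.5 in size; grey points are genes, red bars are medians and dashed lines mark 2-fold. Major sperm proteins, lysozymes and elongases stand at the top, and the nervous system lists fill the bottom, while single members of the lysozymes and hedgehog-related genes lie far on the other side.

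Intestinal lysozymes, enzymes that break bacterial cell walls, held some of the brightest higher genes. Of 8 detected, 4 were higher and 1 lower, with a median of 0.96, where 2.82% and 5.72% of all detected genes were higher and lower. Over the 4 with unshared probe sets 1 was higher and 1 lower, with a median of 0.05. The intensity of lys-7† was 14148 with DEHP, 4479.6 with BPA, 2191 with NP and 3018 untreated (2.22). For ilys-5† it was 10847 with DEHP, 5072 with BPA, 3306 with NP and 1843 untreated (2.55), and its 3 probe sets gave changes from 2.41 to 2.55. For both the DEHP array lay at least 2-fold above each of the others. For lys-2† it was 5764 with DEHP, 1428 with BPA, 1230.3 with NP and 1479 untreated (1.96). For lys-1 it was 6123 with DEHP, 2677 with BPA, 2392 with NP and 2383 untreated (1.35). All 4 were highest on the DEHP array. The other invertebrate-type lysozyme past 2-fold, ilys-3, went the opposite way, at 74.6 with DEHP, 219 with BPA, 160.3 with NP and 923 untreated (-3.64), and lys-8 stayed near the median gene (0.26).

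Other defence genes were split. Of 54 detected C-type lectins, sugar-binding proteins, 10 were higher and 9 lower, with a median of 0.03. The lectin gene clec-41† had 2915 with DEHP, 648 with BPA, 495 with NP and 499.7 untreated (2.54). The gene clec-85 had 1676 with DEHP against 572 untreated (1.54). The DEHP values of both lectins lay at least 2-fold above each of the others. The lectin gene clec-52 had 37.8 with DEHP, 263 with BPA, 196 with NP and 477 untreated (-3.66). The gene clec-61† had 543 with DEHP against 1901 untreated (-1.81). Infection-response and dod genes held 4 higher of 13, namely dod-24†, dod-22, irg-8 and dod-19†, and 1 lower, irg-4. The value of dod-24† was 4457 with DEHP, 900.4 with BPA, 2454 with NP and 1055 untreated (2.07). The value of irg-8 was 1579 with DEHP, 210.4 with BPA, 95.1 with NP and 396 untreated (1.99). The value of irg-4 was 221 with DEHP, 263 with BPA, 472 with NP and 990.4 untreated (-2.17). For irg-8 the BPA and NP arrays lay on the other side of untreated from DEHP. Saposin-like peptides, which can open bacterial membranes, had 4 lower of 14 and none higher, among them spp-8† at 1056 with DEHP, 1808 with BPA, 3163 with NP and 4021 untreated (-1.94). The gene spp-31 had 294 with DEHP, 1178 with BPA, 936 with NP and 979 untreated (-1.74). Another bright member, spp-1†, read 3428 with DEHP against 8148 untreated (-1.26) on a shared probe set, while its unshared set was below detection and gave 0.70.

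Structural genes of the intestine were lower in places, while digestive proteases went both ways. Over all detected genes, 2.82% were higher and 5.72% lower. The intestinal intermediate filament gene ifc-1 had 378 with DEHP, 1246 with BPA, 234 with NP and 2732 untreated (-2.86). The gene ifb-2† had 2326 with DEHP against 4930.3 untreated (-1.09). Of 18 brush border genes and gut regulators 15 lay below the median gene, yet the gut factor gene elt-2 (-0.33) and the microvillar actin gene act-5† (-0.51) stayed within 2-fold, and the gut esterase gene ges-1† was above the median gene (0.53). Among 22 proteases 3 were higher and 2 lower, with a median of 0.145. The cathepsin B-like gene cpr-2 had 105 with DEHP, 449 with BPA, 517 with NP and 1549.8 untreated (-3.88). The gene cpr-5† had 896 with DEHP against 2001 untreated (-1.17). The aspartyl protease gene asp-13† had 4576 with DEHP, 2082 with BPA, 1413 with NP and 1733 untreated (1.39), and asp-17, under the floor untreated at 4.16, read 151 with DEHP, at least 4.84-fold higher. Of 20 proton pump subunits 17 lay below the median gene and 1, vha-5, was lower (-1.14), which is near the share over all genes.

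Among transporters of the list, 2 of 65 were higher and 5 lower, with a median of -0.035, where 2.82% and 5.72% of all detected genes were higher and lower, so the list's shares lay near those of all genes. The folate transporter family gene folt-2† had 2043 with DEHP, 499.9 with BPA, 108 with NP and 311 untreated (2.71). The sugar transporter family gene swt-6 had 286 with DEHP against 75.2 untreated (1.92). Lower members were amino acid transporter genes such as slc-36.2 (-1.17) and aat-5 (-1.28) and the peptide transporter gene pept-3† (-1.43).

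In fat metabolism several fatty acid elongases were higher. Of 6 detected, 3 were higher and none lower, with a median of 0.95. The intensity of elo-6† was 5472 with DEHP, 4616 with BPA, 670.3 with NP and 933 untreated (2.54). The value of elo-5† was 6104 with DEHP, 5377 with BPA, 587 with NP and 1261 untreated (2.27). Both make branched-chain fatty acids, and acs-1, the synthetase that activates such acids, read 1756 with DEHP, 927 with BPA, 570.3 with NP and 686 untreated (1.35). For elo-5† and elo-6† the BPA array came close to the DEHP array, with NP below untreated. The elongase gene elo-2, which lengthens palmitate, had 3582 with DEHP against 1476 untreated (1.27). The gene fat-5, a delta-9 desaturase gene, had 388 with DEHP, 447 with BPA, 64.1 with NP and 159 untreated (1.28). Of 18 synthesis and desaturation genes these, acs-1 and fat-5, were the higher ones, and fasn-1, fatty acid synthase, stood at 0.27.

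Fatty acid breakdown genes were mixed. Of 24 mitochondrial oxidation genes 3 were higher and 1 lower, where 2.82% and 5.72% of all detected genes were higher and lower. The hydroxyacyl-CoA dehydrogenase gene hacd-1 had 1959 with DEHP, 4750.4 with BPA, 266 with NP and 648 untreated (1.59). The enoyl-CoA hydratase gene ech-7 had 1331 with DEHP, 1738 with BPA, 427 with NP and 437 untreated. The gene acdh-1, an acyl-CoA dehydrogenase gene of propionate breakdown, had 10813 with DEHP, 5932 with BPA, 2315 with NP and 5167 untreated (1.06). The BPA array was higher still for hacd-1 and ech-7. The carnitine palmitoyltransferase gene cpt-5 was lower, at 75.1 with DEHP against 258 untreated (-1.79). Peroxisomal genes held 1 higher of 22, ech-9 (1.003), which is near the share over all genes.

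Lysosomal lipases, which release fatty acids from stored fat and are known to be raised by fasting, were lower in part. Of 8 detected lipases 4 were lower and none higher, where 5.72% of all detected genes were lower. Among the 4, lipl-3† and lipl-1 counted as detected only through the untreated array, so this count is partly set by the filter. The DEHP value of lipl-3† was 13.3, under the floor, against 151 untreated, at least 5.44-fold lower. For lipl-1 the intensity was 55.2 with DEHP, 341 with BPA, 195 with NP and 209 untreated (-1.93). For lipl-2 it was 292 with DEHP, 503 with BPA, 458 with NP and 774 untreated (-1.42). The BPA array was above untreated for lipl-1 and below it for lipl-2. Against these, lipl-5 read 4794 with DEHP against 3039 untreated (0.65). The adipose lipase gene atgl-1 had 1106 with DEHP against 1194 untreated (-0.12), so the list median of -0.59 covers opposite members. It turned to 0.02 without the filter on dim genes and to 0.049 over brighter genes only. Of 17 detected genes of sphingolipid metabolism 3 were lower and none higher, with a median of 0.05, so the list as a whole was level. Over the 12 with unshared probe sets 1 was lower. The gene asm-3† counted as detected only through the untreated array. The transcript of asm-3†, an acid sphingomyelinase gene, at 5.97 with DEHP against 193 untreated, was at least 6.93-fold lower. The acid ceramidase gene asah-1 had 1007 with DEHP, 2023 with BPA, 2125 with NP and 2672 untreated (-1.42). The fatty acid and retinol binding gene far-7 had 824 with DEHP, 2372 with BPA, 3404 with NP and 3217 untreated (-1.97). Of 16 genes known to change on fasting, 3 were higher and 3 lower, with a median of 0.03.

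One-carbon and sulfur genes held 2 higher and none lower of 21, folt-2† and cth-1, where 2.82% of all detected genes were higher. The cystathionine gamma-lyase gene cth-1 had 766 with DEHP, 459 with BPA, 240.1 with NP and 269.9 untreated (1.498). The S-adenosylmethionine synthetase gene sams-1 had 6183 with DEHP, 3453 with BPA, 1377 with NP and 3485 untreated (0.82), short of 2-fold.

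Detoxification genes moved by family member and not as a block. Over all detected genes, 2.82% were higher and 5.72% lower. Of 28 cytochrome P450 genes, 5 were higher and 3 lower, with a median of 0.34. The gene cyp-35A2, of a family known to respond to foreign chemicals, had 886 with DEHP, 254 with BPA, 271 with NP and 334 untreated. The gene cyp-13A5 had 1432 with DEHP, 632 with BPA, 491 with NP and 562 untreated (1.34). Of 26 UDP-glucuronosyltransferases, which attach a sugar to drugs, 4 were higher and 2 lower. Among them ugt-44 had 1610.5 with DEHP, 655 with BPA, 519 with NP and 643 untreated (1.32). The gene ugt-62 had 858 with DEHP, 351 with BPA, 253 with NP and 357 untreated (1.26). Both were highest on the DEHP array. The gene ugt-13 had 88.0 with DEHP against 309 untreated (-1.82). Of 32 ABC transporters, 2 were higher and 3 lower, with a median of 0.085, and of the 6 P-glycoprotein genes among them 1 was higher and 3 lower, with a median of -0.43. The P-glycoprotein gene pgp-1†, a drug pump, had 553 with DEHP, 166 with BPA, 46.8 with NP and 131 untreated (2.07). The gene pgp-10 read 116 with DEHP against 279 untreated (-1.27).

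Glutathione-linked and flavin enzymes were lower or near the median gene. Of 24 glutathione S-transferases 5 were lower and none higher, with a median of -0.07, where 5.72% of all detected genes were lower. Over the 20 with unshared probe sets 2 were lower, with a median of -0.007. The kappa-class gene gstk-2† had 142 with DEHP, 346 with BPA, 326 with NP and 697 untreated (-2.31). The gene gst-20† had 569 with DEHP, 790.1 with BPA, 1864 with NP and 1494 untreated (-1.399). All 5 detected flavin monooxygenases lay below the median gene. Among them fmo-2, known to be raised by fasting and low oxygen, had 60.1 with DEHP, 1050.2 with BPA, 88.8 with NP and 378 untreated (-2.66). The DEHP and BPA arrays thus lay on opposite sides of the untreated one for fmo-2. Of the peroxidase genes that use glutathione, gpx-6 (-1.39) and gpx-3 (-1.199) were lower, 2 of 3 lower members among 22 glutathione and thioredoxin genes.

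Stress genes known to respond to heat, metal or oxidants were mostly lower where they passed 2-fold. Of 10 small heat shock genes 4 were lower and none higher, where 5.72% of all detected genes were lower. The intensity of hsp-12.6 was 74.7 with DEHP, 461 with BPA, 2243 with NP and 1389 untreated (-4.22). For hsp-16.2 it was 57.2 with DEHP, 37.7 with BPA, 192 with NP and 309 untreated (-2.44). For hsp-16.41 it was 37.6 with DEHP, 15.4 with BPA, 142 with NP and 151 untreated (-2.01). Both hsp-16 genes, which heat is known to raise, and hsp-12.6 were under the detection level with DEHP. These genes counted as detected only through the untreated array, so the count of 4 is partly set by the filter. For hsp-12.2 the intensity was 2514 with DEHP against 6489 untreated (-1.38). The DEHP value of hsp-12.6 was the lowest of the 4 arrays and the NP value the highest, while the hsp-16 genes were lowest with BPA. The metallothionein gene mtl-1 had 702 with DEHP, 805 with BPA, 4694 with NP and 2677 untreated (-1.94). The ferritin gene ftn-1† had 681 with DEHP, 2391 with BPA, 2886 with NP and 1422 untreated (-1.07). The manganese superoxide dismutase gene sod-3 had 55.3 with DEHP, 39.5 with BPA, 75.2 with NP and 156 untreated (-1.503), while sod-2 stayed level (0.06). With DEHP sod-3 too was under the detection level. A metal gene that was higher is cdr-4†, of the cadmium-responsive genes, at 399 with DEHP against 184 untreated (1.11). In contrast, of 32 heat shock 70 and 90 chaperones and partners 1 was higher, dnj-27 (1.21), and none lower. The 12 genes of the mitochondrial unfolded protein response had none past 2-fold.

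The list of genes known to lie downstream of DAF-16 went both ways. It held 6 higher and 3 lower of 24, with a median of 0.06. The lower 3 were hsp-12.6, mtl-1 and sod-3, which DAF-16 is known to raise. The higher 6 were dct-16†, lys-7†, ins-7, dod-24†, dod-22 and dod-19†. Of these, ins-7 and the dod genes are known to be higher when DAF-16 is inactive, and lys-7 is known as a gene that DAF-16 raises, so the list does not divide cleanly. The value of dct-16† was 14612 with DEHP, 4029 with BPA, 4581 with NP and 2592 untreated (2.49). The insulin-like peptide gene ins-7, known to activate the insulin receptor, had 385 with DEHP, 111 with BPA, 134 with NP and 88.3 untreated (2.12). The other 3 arrays lay near or under the detection level for ins-7. Among the other insulin-like genes ins-35 had 99.8 with DEHP, 105 with BPA, 257 with NP and 549 untreated (-2.47). The gene ins-18 had 142 with DEHP against 287 untreated (-1.03). Of 18 genes from the receptor to FOXO, ist-1, an insulin receptor substrate gene, was lower (-1.63) and none was higher.

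Other regulators were mostly level or below. Nuclear hormone receptors, transcription factors that bind lipids and hormones, had 2 higher and 8 lower of 89, with a median of -0.41. For this and the next lists, the shares over all detected genes were 2.82% higher and 5.72% lower. The higher ones were nhr-114, at 567 with DEHP, 198 with BPA, 68.1 with NP and 204 untreated (1.47), and nhr-43 (1.06). Lower ones included nhr-97, at 343 with DEHP, 333 with BPA, 236 with NP and 863 untreated (-1.34), and nhr-171 (-2.15), which was below the detection level with DEHP. For nhr-97 all 3 exposed arrays lay below untreated. In the TGF-beta and Wnt list daf-5† (-1.13) and sma-2† (-1.09) were lower, and lon-1, a body length gene known to be repressed by the TGF-beta signal, was higher, at 995 with DEHP against 412 untreated (1.27). Transthyretin-like genes had 4 lower of 31, led by ttr-31 at 271 with DEHP, 969 with BPA, 442 with NP and 1548 untreated (-2.52). The DEHP array was the lowest of the 4 for ttr-31. The aquaporin gene aqp-8 was lower, at 106 with DEHP against 353 untreated (-1.74). The class glb, of globins, had a median of -0.96 over 5 detected genes, with the bright glb-1† at 4077 with DEHP against 6882 untreated (-0.76).

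Housekeeping lists stayed close to the median gene. None of 75 cytosolic ribosomal proteins passed 2-fold, and their changes ran from -0.46 to 0.16 with a median of -0.07. None of 33 proteasome, 64 respiratory chain, 54 mitochondrial ribosome, 47 splicing, 32 tRNA synthetase or 40 translation factor genes passed 2-fold either. Their medians were 0.04 for the proteasome, -0.15 for the respiratory chain and -0.21 for the mitochondrial ribosome. Against the background of 2.82% higher and 5.72% lower, these sets of bright transcripts held no called gene, and the share of called genes also drops with brightness over the whole array.

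The 30 highest genes above the 75th percentile of intensity held several with no role given here. The transcript of mbug-1 had 2859.9 with DEHP, 99.6 with BPA, 597 with NP and 103.1 untreated (4.79). The value of spig-20 was 1015 with DEHP, 115 with BPA, 71.9 with NP and 80.7 untreated (3.65). The value of T13F3.6 was 1430.3 with DEHP, 268 with BPA, 88.7 with NP and 130.1 untreated (3.45). For mbug-1 the NP array was also above untreated, while for spig-20 DEHP stood alone. A second, shared probe set of T13F3.6 gave 4.21. The gene hpo-6, named for a hypersensitivity to pore-forming toxin, had 1279 with DEHP, 323 with BPA, 226 with NP and 218 untreated (2.55). The gene C50F7.5 had 2365 with DEHP, 455 with BPA, 206 with NP and 412 untreated (2.52). The gene F54E2.1 had 2659.7 with DEHP, 496 with BPA, 519.6 with NP and 473 untreated (2.48). For C50F7.5 and F54E2.1 the other 3 arrays lay close together, except for NP on C50F7.5.

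The lowest of the 30 lowest genes was F42A10.7, at 37.6 with DEHP, 1202 with BPA, 921 with NP and 1584 untreated (-5.41). Its DEHP value lay under the detection level while the other 3 arrays were bright, so the direction is plain on these arrays and the size uncertain. Further low genes have no role given here. The transcript of C18H7.1 had 129.4 with DEHP, 555 with BPA, 198 with NP and 922 untreated (-2.84). That of sdz-24 had 334 with DEHP, 991 with BPA, 682 with NP and 1782 untreated (-2.42). That of F43C11.7 had 599 with DEHP, 1664 with BPA, 2703 with NP and 3069 untreated (-2.37). For C18H7.1 the order was DEHP, NP, BPA and untreated from low to high, whereas NP lay close to untreated for F43C11.7. The arrestin-domain gene arrd-17 read 184 with DEHP against 815 untreated (-2.15). For Y53F4B.45†, at 1101 with DEHP against 4204 untreated (-1.94) on a shared probe set, the unshared set lay under detection on both arrays.

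**Figure D5:**
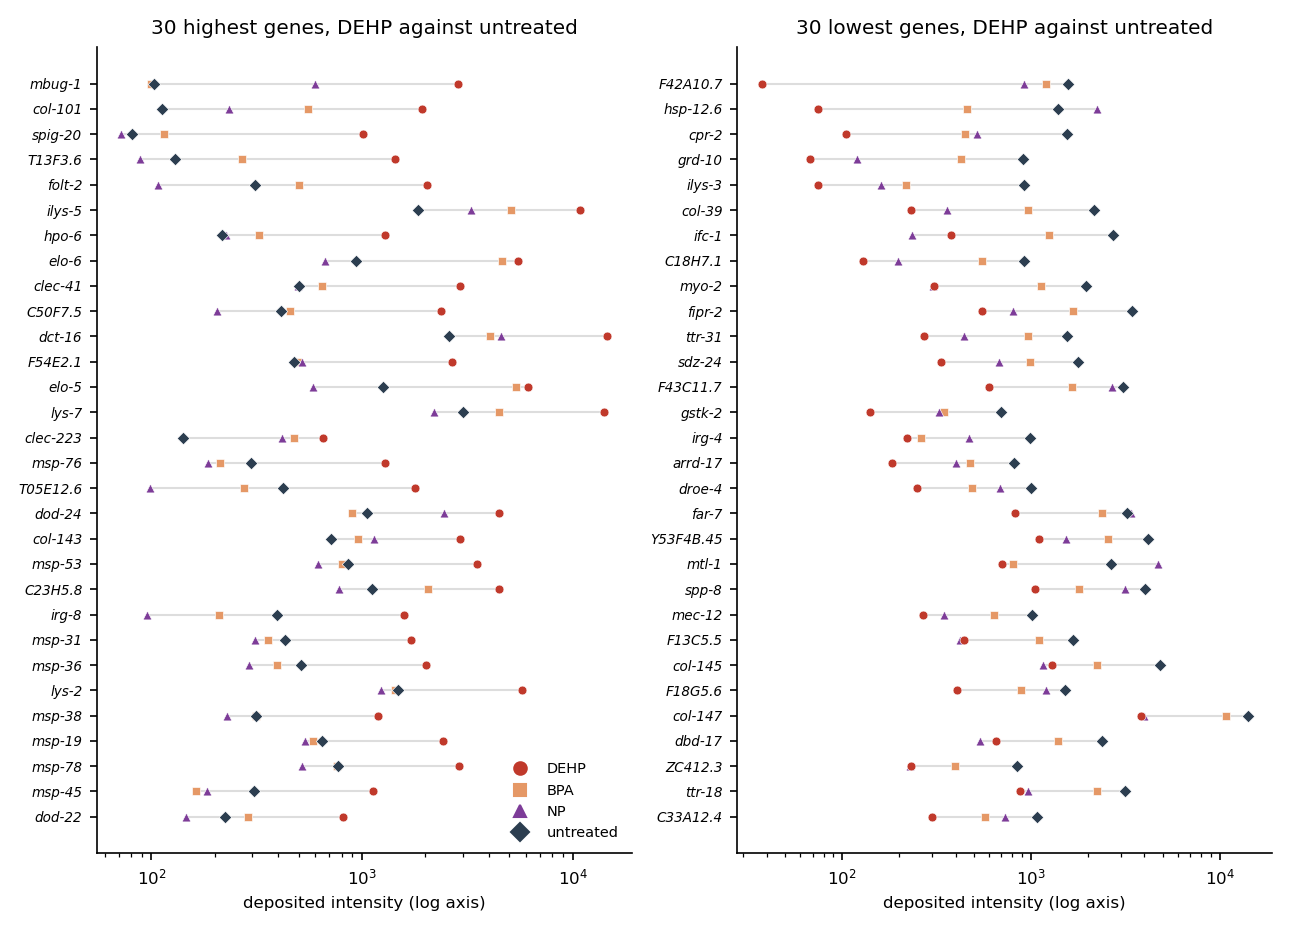
Deposited intensity (log axis) on the 4 arrays of the 30 highest (left) and 30 lowest (right) genes of the DEHP comparison, sorted by change, each point being 1 array. The DEHP points lie right of the others for the higher genes, with BPA close by for elo-5 and elo-6, and among lower genes NP lies near DEHP for myo-2 and col-147 and beyond untreated for hsp-12.6 and mtl-1.

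Neighbouring genes moved together in places. Runs of at least 3 adjacent detected genes past 2-fold in the same direction numbered 7 higher and 4 lower. On chromosome IV the genes ZK896.5†, K08D8.6†, K08D8.4 and K08D8.5† were all higher, by 1.09 to 2.82, the last being the bound of K08D8.4. The intensity of K08D8.5† was 466 with DEHP, 263 with BPA, 108 with NP and 107 untreated, and K08D8.4 read 220.1 with DEHP against 30.6 untreated, which was under the floor once the arrays were scaled, so it was at least 7.05-fold higher. Also on chromosome IV, R05A10.4, R05A10.3†, R05A10.2 and R05A10.1 were all lower, with changes from -3.21 to -1.54, and R05A10.1 read 35.1 with DEHP, 134 with BPA, 26.1 with NP and 324 untreated. Both DEHP and NP lay far under untreated for R05A10.1. On chromosome V lys-1 and lys-2† lay beside B0024.4, at 872 with DEHP, 133 with BPA, 166 with NP and 335 untreated (1.37). Also there dod-19† and irg-8 lay beside M02H5.8, at 461 with DEHP against 185 untreated (1.31). On chromosome II tnc-2 lay beside clec-60 and clec-61†, which were lower. Adjacent genes of 1 family can share probes, and the runs hold 3 daggered genes in the first alone.

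To see which values stand out on the DEHP array against all 3 others, genes were counted that lay at least 2-fold above or below each of them. Of 9251 genes detected on any array, 96 lay above on the DEHP array, which is 1.04%, and 54 below, which is 0.584%. The same count gave 22 above and 14 below for BPA, 27 and 163 for NP, and 53 and 28 for the untreated array. The DEHP count above was thus the largest of the 4 and the count below was second to NP. Major sperm proteins made up 19 of the 96, and msd-2†, msd-4†, nspd-1†, nspd-2† and nspd-4† another 5. The lysozymes lys-1, lys-2†, lys-7† and ilys-5†, the collagens col-80, col-101†, col-124† and col-143, the transferases ugt-44, ugt-47 and ugt-62, and dod-19†, dod-22, irg-8, dct-16† and ins-7 were also among them. As examples and not as a ranking, the smallest distance to another array was 3.16 log2 for spig-20, 2.43 for T13F3.6, 2.395 for C50F7.5 and 2.26 for mbug-1.

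Among the 54 genes below, the difference from the next array was -4.615 log2 for F42A10.7. Further examples among the 54 were -2.61 for hsp-12.6, -2.07 for cpr-2, -1.67 for spp-31 and -1.51 for far-7. Lectins gave 6 of them, clec-5†, clec-8†, clec-10, clec-52, clec-82 and clec-264, against 3 lectins above, clec-41†, clec-48 and clec-85. The list also held hsp-12.6, ilys-3, cpr-2, lipl-1, asm-3†, gstk-2†, ftn-1† and hil-1. No flp gene, vesicle release gene or muscle filament gene was 2-fold below all 3 arrays. Of 18 potassium channel genes, 1 was below all 3, exp-2.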

How the data were processed

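Transcripts of 4 worm samples (DEHP, BPA, NP and untreated, 1 array each) were read as 22625 probe sets. The deposited values are linear intensity values per probe set. Their trimmed mean, with the lowest and highest 2% left out, was the same on every array, and the authors' summary and scaling software is not given in the sources used here. Of the probe sets, 77 controls, 887 assigned to several genes and 895 assigned to none were left out. Log2 intensities were set to a common array median and floored at the pooled 25th percentile (28.3). Each gene was read by its probe set with the highest mean over the 4 arrays. Changes were centred on the median detected gene, and a gene was called at 2-fold. Gene symbols came from the platform table, and chromosomes and gene order from the RefSeq gene table.

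Named were the 30 highest and 30 lowest genes that reached the pooled 75th percentile (612.6) and kept their sign under other normalizations, up to 6 members per list, and up to 10 genes per direction apart from all 3 other arrays. Other genes (such as members of the runs, of nlp, bus, lpr and other classes, and examples near the median gene) were chosen after their values were seen. The 91 gene lists and the members described were chosen with earlier results of these data known. The code was tested on simulated data. Python 3.11.15, numpy 2.4.6, pandas 2.3.3 and statsmodels 0.14.6 were used.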

Additional observations from a re-analysis of the deposited data

How the results depend on the processing

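Of 9 alternatives, 3 moved a count of genes past 2-fold, 251 higher and 510 lower as reported, by more than 1.5 times. Changes not centred on the median gene gave 391 higher and 365 lower. Without the filter on dim genes there were 679 higher and 657 lower, and with brighter genes only 109 higher and 153 lower, since more or fewer genes were counted. The counts were 321 and 474 after quantile normalization, 295 and 461 after loess, 255 and 533 with the values as deposited, 251 and 510 with no floor, 231 and 468 with the mean of probe sets, and 176 and 390 with unshared probe sets only. The share of higher genes among called ones was 51.7% without centring and 50.8% without the filter, where the reported counts have more lower than higher genes.

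The median of lysosomal and fat-store lipases turned to 0.02 without the filter and to 0.049 with brighter genes only, and the median of carbonic anhydrases and sulfur to 0.11 with brighter genes only. With unshared probe sets only, the median of other sperm and spermatogenesis turned to -0.018, Y53F4B.45 to 0.02, col-131 to -0.14, spp-1 to 0.72 and unc-10 to 0.42. These values are centred on the median of the genes kept by that alternative, which is why they differ by up to a few hundredths from those of single probe sets. The cause was not tested. No other named gene past 2-fold, and no other list with a median of at least 0.2 in size, changed sign under the alternatives that gave it a value. For the highest and lowest genes this is no check of the other normalizations, since keeping their sign there was a condition for naming them. A gene or list without a value under an alternative could not change sign there. The major sperm proteins had no unshared probe set, so the alternative with unshared probe sets only cannot test them.

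No paired analysis was possible because each group has 1 array. Leaving out a replicate was not possible for the same reason. Depth is not defined for arrays, and changes of genes under the detection level on 1 array are limited by the signal over background.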
